A study of Mus musculus with 23 samples.

Results

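The 9 genes described here, G6pc, Pck1, Fbp1, Ppargc1a, Tat, Igfbp1, Irs2, Creb3l3 and Pklr, are genes of hepatic glucose production and of the response of the liver to fasting. They were taken by symbol from a table of read counts with 54838 genes, each symbol matching 1 Ensembl gene ID. Their transcripts were counted in RNA-seq libraries of mouse liver (inbred strain C57BL/6J) made after injection of 1 of 4 recombinant proteins or of vehicle. The proteins were EPDR1 (ependymin related 1), FCN2 (ficolin 2, which starts the lectin pathway of complement), FSTL3 (follistatin-like 3, which binds and blocks activins) and LBP (lipopolysaccharide binding protein).

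Each protein was given at 1 µg per g of body weight in 3 injections at intervals of 1 day. Batch 1 held 4 vehicle libraries and 3 LBP libraries (replicates 2, 3 and 4). Batch 2 held 4 libraries each of vehicle, EPDR1, FCN2 and FSTL3. The last 3 groups share that vehicle, so their comparisons with it are not independent. Genotype beyond the strain, sex, age, feeding state, the hour of collection and the makeup of the vehicle are not given in the sources used here. Nothing there states that the samples of a group came from separate animals, so each p-value reflects only how far these samples spread, which may be technical.

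In the fasted liver, glucagon acts through cAMP and the CREB family, and falling insulin releases FOXO factors, which together raise transcription of gluconeogenic genes. G6pc encodes the glucose-6-phosphatase catalytic subunit that releases free glucose. Other steps are set by pairs of opposing enzymes: Fbp1, fructose-1,6-bisphosphatase, against phosphofructokinase (Pfkl), and Pck1, cytosolic phosphoenolpyruvate carboxykinase, against pyruvate kinase. Pklr encodes the liver pyruvate kinase and is the glycolytic gene of the set, raised by carbohydrate feeding and lowered in fasting.

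A control element shared by some of these genes could be read in the reference sequence. All 9 genes matched the RefSeq promoter table of mouse build GRCm38.p6, with 11 start sites, and the 250 bases before each start were searched on both strands. The forkhead insulin-response letters TGTTTTG stood before a start of 4 of the 9 genes, G6pc, Igfbp1, Irs2 and Creb3l3, against 5.56% of 32851 promoters in the table. The stretch of the G6pc promoter on chr11:101367466-101367560 (plus strand, 250 to 156 bases before the RefSeq start, in front of the annotated gene) is shown because G6pc was the gene of the set with the largest change after FSTL3. Capitals mark TGTTTTG.
G6pc: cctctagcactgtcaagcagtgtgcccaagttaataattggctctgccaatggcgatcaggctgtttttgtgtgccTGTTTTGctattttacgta

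The same letters in the other 3 genes are shown with 10 bases on each side, to compare their surroundings. These windows were chosen after the matches were seen. Each is written on the strand of its gene, so CAAAACA is the motif on the opposite strand. They lie at chr11:7197669-7197695 (plus) for Igfbp1, chr8:11008950-11008976 (minus) for Irs2 and chr10:81092723-81092749 (minus, before an internal start site) for Creb3l3.
Igfbp1: agctcacaagCAAAACAaacttatttt
Irs2: agtcacgtgtTGTTTTGctcttagttc
Creb3l3: ggaaaaagcaCAAAACAgaaagataac

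The full cAMP response element TGACGTCA was in none of the 9 genes' windows and in 1.55% of all promoters. Its half-site TGACG was in 3 of the 9, Pck1, Ppargc1a and Creb3l3, and in 17.8% of all promoters. It is shown for Pck1 and Ppargc1a, both known cAMP targets, at chr2:173152973-173152997 (plus) and chr5:51567760-51567784 (minus), with capitals for the half-site on the opposite strand.
Pck1: ctgccccttaCGTCAgaggcgagcc
Ppargc1a: tgccctcccaCGTCActgagctcca

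The E-box CACGTG was in Irs2 alone of the 9 and in 6.02% of promoters. The forkhead letters GTAAACA (3.17% of promoters) and the D-box letters TTATGTAA (0.819%) were in none of the 9 windows. A match describes the letters of this window only; binding was not measured.

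Total counts per library ranged from 773499 to 21892416, with a median of 3712802. Levels are given as CPM, counts per 1e6 of each library's total over the genes tested, adjusted by its TMM factor. That factor allows for differences in RNA composition, so CPM are not plain shares of the library total. Changes are log2 fold changes ± SE from edgeR's quasi-likelihood test, fitted over 11969 genes and all 23 libraries, with Benjamini-Hochberg adjusted p-values and a threshold of 0.05. Hepatocyte markers were present in all libraries, but albumin took 0.211% of counts in LBP replicate 2 against 5.26% to 8.36% in the other 22. Because that library widens the spread shared by all groups, results are also given without it. The 4 FSTL3 libraries stood apart from all others, with 0.667% to 0.753% of counts from small structural RNAs (at most 0.0817% elsewhere) and log2 changes against the batch 2 vehicle that rose with transcript length (Spearman's rho 0.458 across genes). A clock index (log2 level of genes peaking with Per and Dbp, less that of genes peaking with Bmal1) was 1.98 ± 0.22 (SD, n = 4) after FSTL3, 1.27 ± 0.62 (n = 4) in the batch 1 vehicle and -2.08 ± 0.65 (n = 4) in the batch 2 vehicle. In bulk tissue, fewer cells of a type and less RNA per cell cannot be told apart.

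LBP replicate 3 held transcripts of kidney tubule. Slc34a1, the renal phosphate transporter, had 760 counts there and at most 2 in any of the other 22 libraries. Umod, uromodulin of the thick ascending limb, had 418 counts there and at most 1 elsewhere. The 4 kidney markers together took 0.0701% of that library and at most 0.000267% of any other. Kidney tubule also makes glucose and expresses G6pc, Pck1 and Fbp1, so LBP values are given with and without this library.

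Pck1 was the most abundant of the 9 transcripts and Ppargc1a the least. In the batch 2 vehicle, levels per length were 762 ± 133 CPM per kb for Pck1, 430 ± 120 for Tat and 409 ± 36.5 for Fbp1 (SD, n = 4). Tat, tyrosine aminotransferase, and Fbp1 did not differ beyond their spread. G6pc at 75.0 ± 22.6 and Creb3l3 at 70.5 ± 14.4 CPM per kb formed the next pair, again within their spread. Igfbp1 (35.4 ± 9.30), Pklr (13.7 ± 2.12), Irs2 (3.57 ± 1.06) and Ppargc1a (1.39 ± 0.59 CPM per kb) followed. All 9 passed the filter on low counts.

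**Figure D1:**
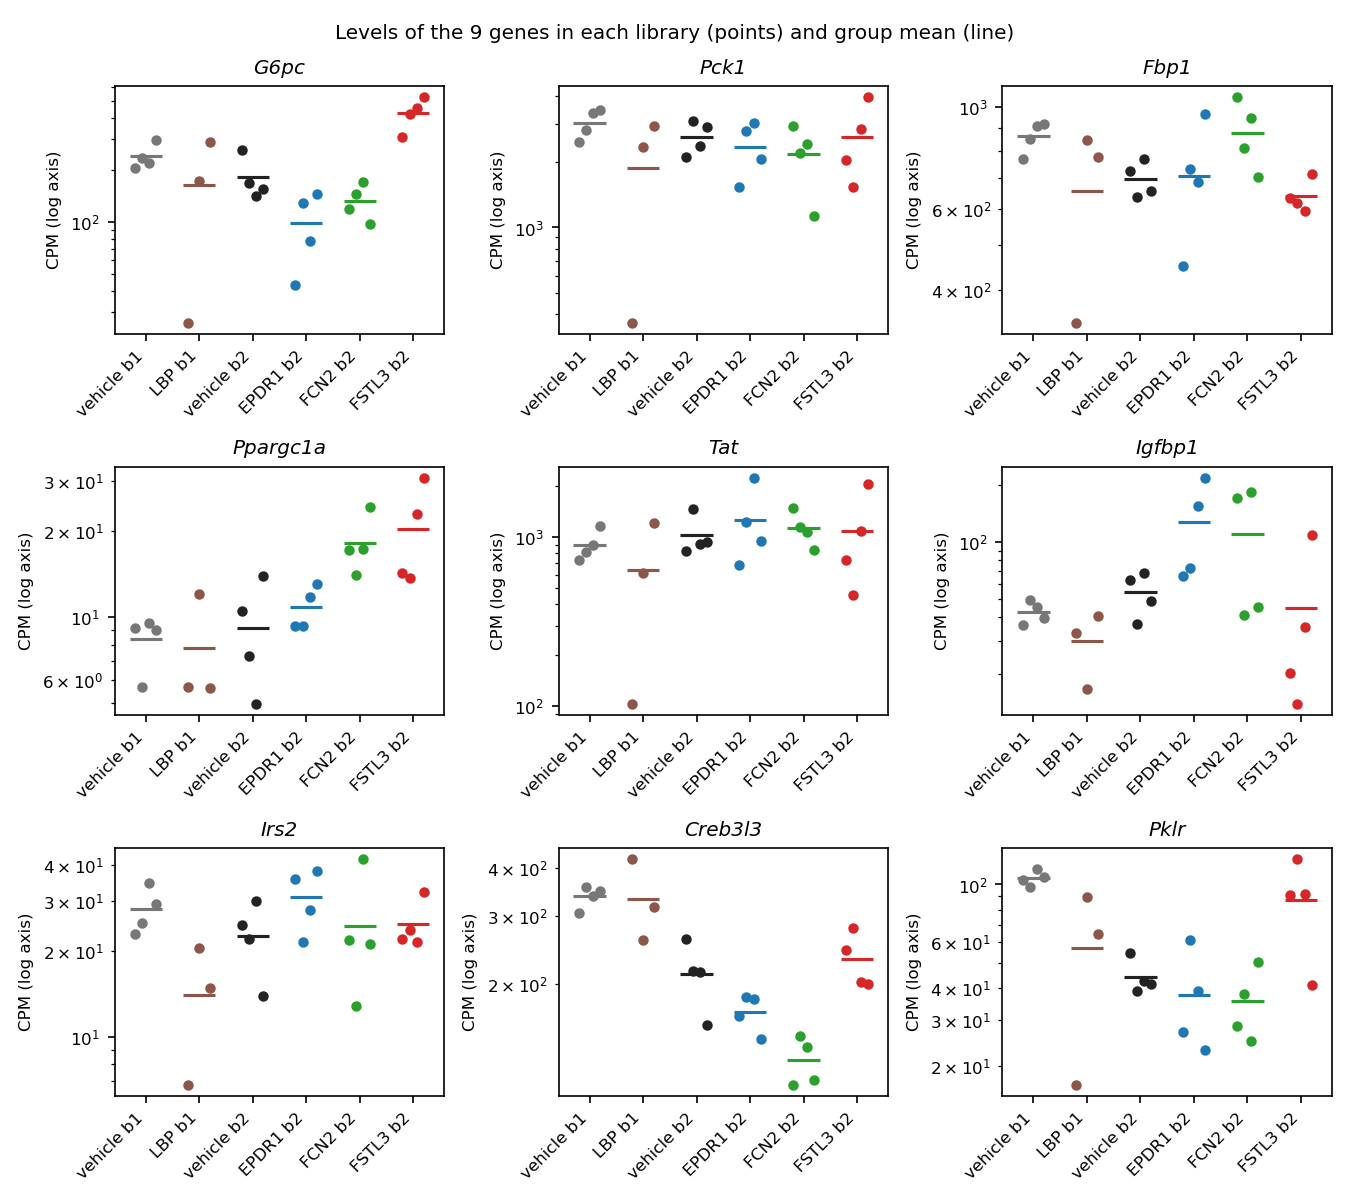
CPM of each of the 9 genes (log axis) in each library, by group; points are libraries, lines are group means, and b1 and b2 are the batches. G6pc in the 4 FSTL3 libraries, 308 to 526 CPM, sits above all other libraries, and LBP replicate 2 is the lowest library for G6pc, Pck1, Fbp1, Tat, Irs2 and Pklr.

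After FSTL3, G6pc, Ppargc1a and Pklr were higher than in the batch 2 vehicle and none of the 9 was lower. This was 3 of 9 genes, 33.3%, while 39.2% of all genes tested passed in this comparison and 23.2% passed as higher. Without LBP replicate 2 the same 3 genes passed, beside 56.8% of all genes (31.3% higher). The 9 log2 changes ran from -0.27 to 1.24 with a median of 0.13, against 0.063 for all genes. Their median absolute change was 0.14, against 0.56 for all genes. Of the other measures that moved with FSTL3, the 6 sinusoidal endothelial markers took 0.0533% to 0.0637% of counts against 0.0146% to 0.0183% in the batch 2 vehicle, and the acute phase list took 1.74% to 1.94% against 2.79% to 5.47%. Counts in protein-coding genes of the mitochondrial genome were 1.97% to 2.13% after FSTL3 and 7.36% to 11.8% in that vehicle, and the 4 neutrophil markers took 1.03e-05% to 5.19e-05% against 0.00027% to 0.00155%. The neutrophil shares are near the floor: Ly6g and Mpo had 0 counts in every FSTL3 library, so they rest on S100a8 and S100a9. The part of these measures in the changes of the 9 genes was not tested.

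G6pc (ENSMUSG00000078650, chr11:101367561-101377903, plus strand, GRCm38) encodes the last step of glucose release. It was at 308, 422, 457 and 526 CPM after FSTL3 and at 261, 167, 141 and 155 CPM in the batch 2 vehicle. All 4 FSTL3 libraries were above all 4 vehicle libraries, a separation that 53.7% of all genes showed in this comparison. The log2 change was 1.24 ± 0.43, or 2.36-fold (adjusted p = 0.0267, edgeR; 0.00216 without LBP replicate 2). G6pc was also higher after FSTL3 than after EPDR1 (log2 2.12 ± 0.45, adjusted p = 0.000633) and after FCN2 (1.69 ± 0.44, adjusted p = 0.00347), comparisons in which 42% and 44.3% of all genes passed.

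Ppargc1a (chr5:51454250-51567726, minus strand) encodes PGC-1alpha, a coactivator of gluconeogenic and mitochondrial genes. It was at 14.3, 13.7, 23 and 30.6 CPM after FSTL3 and at 10.5, 7.33, 4.98 and 13.9 CPM in the batch 2 vehicle. The groups met at their edges, since the lowest FSTL3 library was just under the highest vehicle library. The log2 change was 1.17 ± 0.30 (adjusted p = 0.00313, edgeR), and it passed when any 1 of the 8 libraries was left out.

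Pklr (chr3:89136142-89146784, plus strand), the opposing pyruvate kinase, was at 90.8, 125, 92.3 and 40.9 CPM after FSTL3 and at 54.3, 39.0, 42.4 and 41.3 CPM in the batch 2 vehicle. FSTL3 replicate 4 lay among the vehicle libraries and the other 3 lay above them. The log2 change was 0.98 ± 0.37 (adjusted p = 0.0366, edgeR; 0.0109 without LBP replicate 2). With all libraries in the fit, the calls of G6pc and of Pklr each held in only 2 of the 8 fits that left out 1 compared library, with adjusted p up to 0.0755 and 0.148. Without LBP replicate 2, both held in 8 of 8.

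The choice of control changed some of these calls. Against the batch 1 vehicle, whose clock index was nearer to that of FSTL3, Ppargc1a was still higher (log2 1.21 ± 0.31, adjusted p = 0.00382). Pklr had a log2 change of -0.28 ± 0.36 (adjusted p = 0.59), on the other side of 0. G6pc stood at 0.84 ± 0.43 (adjusted p = 0.143; 0.0294 without LBP replicate 2). Creb3l3 was lower (-0.54 ± 0.20, adjusted p = 0.0375). Fbp1 stood at -0.432 ± 0.25 (adjusted p = 0.198, edgeR) and was called lower without LBP replicate 2 (-0.435 ± 0.16, adjusted p = 0.0252). In this comparison 22.2% of the 9 and 31.9% of all genes passed. Without LBP replicate 2 these shares were 44.4% and 49.9%. Batch and protein differ together in this comparison and cannot be told apart.

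The other 2 enzymes of the route did not pass after FSTL3. Pck1 had 2050, 1530, 2840 and 3960 CPM against 2110, 3090, 2360 and 2890 CPM, and the vehicle libraries lay inside the FSTL3 range. Its log2 change was -0.01 (95% interval -0.84 to 0.82). Fbp1 ranged from 593 to 716 CPM against 635 to 769 CPM, with a log2 change of -0.12 ± 0.25. Genes of like exon length to Fbp1 had a median log2 change of -0.54, and with the length trend removed and LBP replicate 2 left out Fbp1 passed on the higher side (0.43, adjusted p = 0.0211). With the length trend removed in the fit of all libraries, G6pc (1.6), Pklr (1.17) and Ppargc1a (0.87) kept their calls, beside 3196 of 11969 genes.

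Tat, which feeds tyrosine carbon into the route, ranged from 457 to 2060 CPM after FSTL3 and from 832 to 1460 CPM in the vehicle (log2 change 0.07 ± 0.50). Igfbp1, a secreted IGF binding protein repressed by insulin, was at 20.2, 13.9, 35.3 and 109 CPM after FSTL3 against 62.8, 36.7, 68.1 and 48.6 CPM. Replicates 1 to 3 were below every vehicle library and replicate 4 above every one, and the log2 change was -0.27 ± 0.55. It was -1.21 (adjusted p = 0.0737, edgeR) without FSTL3 replicate 4 and 0.37 (adjusted p = 0.677) with the length trend removed. Irs2, the insulin receptor substrate induced in fasting, and Creb3l3, the liver CREB-H factor, had log2 changes of 0.14 ± 0.30 and 0.13 ± 0.19.

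**Figure D2:**
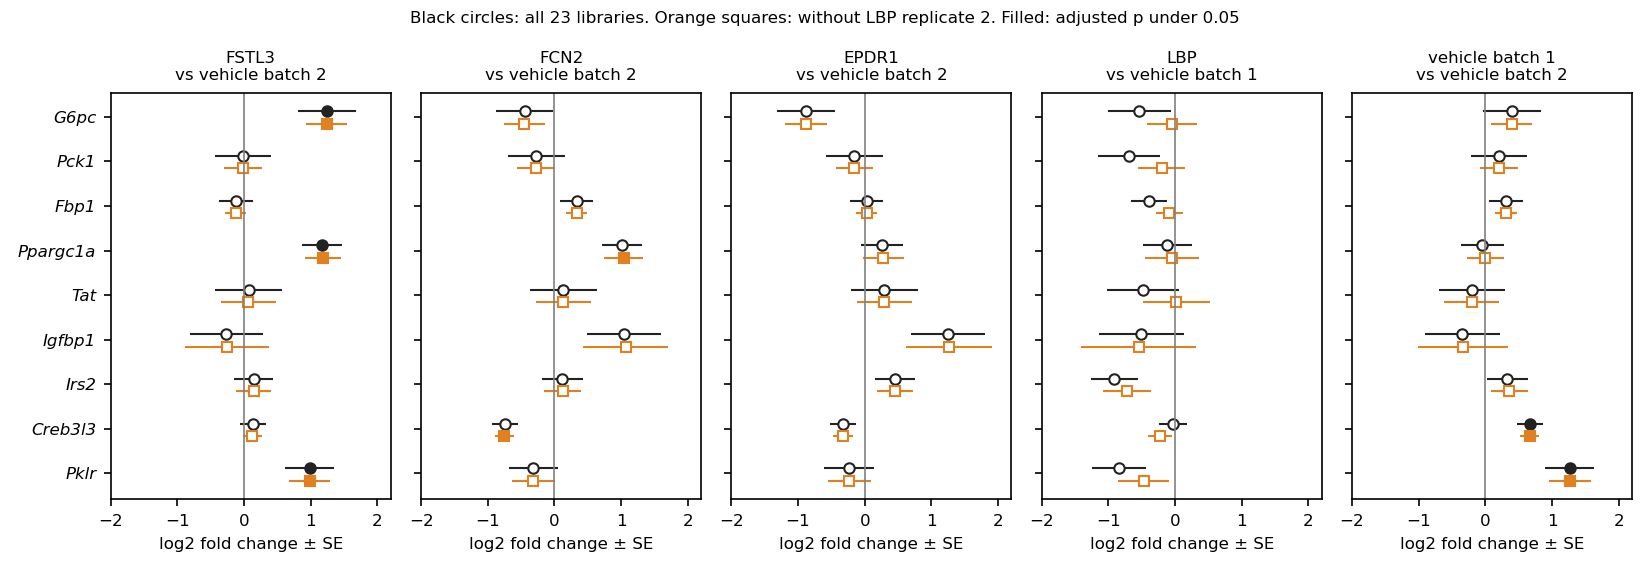
Log2 fold changes with SE of the 9 genes in 5 comparisons, with all 23 libraries (circles) and without LBP replicate 2 (squares); filled symbols have an adjusted p under 0.05. G6pc, Ppargc1a and Pklr are filled after FSTL3 in both fits, whereas Ppargc1a and Creb3l3 after FCN2 are filled only without LBP replicate 2.

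After FCN2, Creb3l3 and Ppargc1a had the smallest unadjusted p-values of the 9 in edgeR, and Igfbp1 had the largest log2 change. With all libraries none of the 9 passed, in a comparison where 0.81% of genes did. An unadjusted p under 0.05 in edgeR was found for 2 of the 9 and for 2069 of all 11969 genes. Without LBP replicate 2, Ppargc1a was higher and Creb3l3 lower, 22.2% of the 9 against 18.9% of all genes (8.81% higher and 10.1% lower).

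Ppargc1a was at 17.2, 14, 17.3 and 24.2 CPM after FCN2, all above the vehicle values, of which the highest was 13.9 CPM. The log2 change was 1.01 ± 0.30 (adjusted p = 0.0956, edgeR), and 1.04 ± 0.29 without LBP replicate 2 (adjusted p = 0.0158). In the latter fit the call was lost without FCN2 replicate 4 or without vehicle replicate 2, with adjusted p up to 0.0881. The direct difference between FSTL3 and FCN2 in Ppargc1a was 0.16 (95% interval -0.39 to 0.71).

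Creb3l3 (chr10:81084324-81098874, minus strand), whose protein is released from the endoplasmic reticulum and drives fasting genes, was at 110, 147, 138 and 113 CPM after FCN2 and at 262, 217, 215 and 157 CPM in the vehicle. All 4 FCN2 libraries were below all 4 vehicle libraries, as for 18.6% of genes in either direction. The log2 change was -0.74 ± 0.20 (adjusted p = 0.0639, edgeR; 0.00164 without LBP replicate 2, where it passed in 8 of 8 fits with 1 library left out). Creb3l3 was higher after FSTL3 than after FCN2 (0.87 ± 0.20, adjusted p = 0.00103).

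Igfbp1 split the FCN2 group. Replicates 1 and 3 were at 172 and 185 CPM, above every vehicle library, while replicates 2 and 4 were at 40.8 and 45.2 CPM, inside the vehicle range. The log2 change of 1.05 ± 0.55 did not pass (adjusted p = 0.336, edgeR). G6pc (-0.45 ± 0.43), Pck1 (-0.27 ± 0.42), Fbp1 (0.34 ± 0.25), Pklr (-0.32 ± 0.37), Irs2 (0.12 ± 0.30) and Tat (0.13 ± 0.50) did not pass either.

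After EPDR1 none of the 9 passed, and 0% of genes did (0 of 11969 by edgeR, DESeq2 or limma-voom). In edgeR 493 genes, 1 of them among the 9, had an unadjusted p under 0.05. G6pc was at 42.9, 128, 77.8 and 145 CPM, of which 3 were below and 1 inside the vehicle range of 141 to 261 CPM. Its log2 change was -0.88 ± 0.43 (unadjusted p = 0.055, adjusted p = 1, edgeR). Igfbp1 was at 66.2, 72.7, 156 and 218 CPM against 36.7 to 68.1 CPM in the vehicle, with 3 of 4 above every vehicle library and a log2 change of 1.25 ± 0.56 (unadjusted p = 0.0347, adjusted p = 1, edgeR).

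FSTL3 and EPDR1, which share the batch and its vehicle, were compared directly. Igfbp1 was lower after FSTL3 (-1.52 ± 0.56, adjusted p = 0.0316, edgeR), and Pklr was higher (1.22 ± 0.37, adjusted p = 0.011). In that comparison 4 of the 9 passed, with 42% of all genes. No gene of the 9 passed between EPDR1 and FCN2, where 0% of all genes did by edgeR. The largest difference was Ppargc1a (-0.75 ± 0.30, adjusted p = 0.464). Without LBP replicate 2, 4.73% of all genes passed and still none of the 9. Creb3l3 came nearest in that fit (0.425 ± 0.146, adjusted p = 0.084, edgeR).

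After LBP none of the 9 passed, where 7.7% of all genes did. With all 3 libraries, all 9 log2 changes were below 0, from -0.91 to -0.02 with a median of -0.51, against 0 for all genes. Without LBP replicate 2 they ran from -0.71 to 0.02, with a median of -0.20, and 0.727% of genes passed.

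Irs2 was at 6.80, 20.5 and 14.8 CPM in LBP replicates 2, 3 and 4 and at 23, 25.1, 34.6 and 29.2 CPM in the batch 1 vehicle. All 3 LBP libraries were below the vehicle, and 10.9% of genes had groups that did not overlap here. The log2 change was -0.91 ± 0.36 (adjusted p = 0.12, edgeR). It was -0.71 (adjusted p = 0.384) without LBP replicate 2 and -1.24 (adjusted p = 0.0446) without replicate 3, the library with the kidney markers. The fit without replicate 3 rests on LBP replicates 2 and 4, of which replicate 2 is the library low in albumin. In that fit 2145 of 12294 genes passed.

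Pklr was at 17, 89.8 and 64.3 CPM after LBP against 104, 98.2, 115 and 107 CPM in the vehicle, again with no overlap. Its log2 change was -0.85 ± 0.40 (adjusted p = 0.213, edgeR), -0.47 without LBP replicate 2 and -1.29 (adjusted p = 0.053) without replicate 3. The gluconeogenic enzymes moved with LBP replicate 2: G6pc was at 26.1, 173 and 288 CPM and Pck1 at 366, 2340 and 2910 CPM in replicates 2, 3 and 4. Without that library their log2 changes were -0.05 ± 0.38 and -0.20 ± 0.35.

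Leaving out replicate 3 instead gave G6pc -0.57, Pck1 -0.88, Fbp1 -0.63 and Ppargc1a -0.65. Ppargc1a was highest in replicate 3, at 12 CPM against 5.67 and 5.65 CPM. Pancreatic acinar markers took 0.105% and 0.072% of counts in replicates 2 and 4, against 0.00245% in replicate 3 and at most 0.0107% in the batch 1 vehicle. The part of kidney or pancreatic RNA in the LBP values was not tested. Of the 9 genes, 3 (G6pc, Ppargc1a and Pklr) differed between the LBP and FSTL3 responses, each against its own vehicle, as did 31.7% of all genes.

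The 2 vehicles, neither of which received a protein, differed in Creb3l3 and Pklr. This was 22.2% of the 9 genes, against 12.2% of all genes (6.76% higher). Creb3l3 was at 306, 358, 338 and 350 CPM in batch 1, all above the batch 2 libraries (157 to 262 CPM), with a log2 difference of 0.67 ± 0.20 (adjusted p = 0.0277, edgeR). Pklr was at 98.2 to 115 CPM in batch 1 and 39.0 to 54.3 CPM in batch 2, a log2 difference of 1.27 ± 0.37 (adjusted p = 0.0277).

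With all libraries in the fit, each of these calls held in 2 of 8 fits with 1 library left out (adjusted p up to 0.103 and 0.0773), and without LBP replicate 2 each held in 8 of 8, where 30.3% of all genes passed (15.4% higher). Fbp1 also did not overlap, at 770 to 917 against 635 to 769 CPM, but did not pass (0.31 ± 0.25, adjusted p = 0.46); 31.6% of genes did not overlap here. The Pklr difference between the vehicles, 1.27, lay beside the 0.98 found for FSTL3 against the batch 2 vehicle. The clock index moved in the same direction in both comparisons, and its part in the Pklr difference was not tested.

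Within groups, some of the 9 genes varied together. These correlations, on log2 CPM minus the group mean, cover 22 libraries without LBP replicate 2, are descriptions, and share library depth and RNA composition among their points. Pck1 and Tat had r = 0.87, and each was the other's most similar gene among 7170. Next to Pck1 came Asl, argininosuccinate lyase of the urea cycle (0.80), and Sds, serine dehydratase (0.77). G6pc and Fbp1 had r = 0.68.

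Igfbp1 and Pklr varied in opposite directions (r = -0.73), as did Ppargc1a and Creb3l3 (-0.63). FSTL3 replicate 4 was at one end of this: it had the highest Igfbp1, Tat and Pck1 (109, 2060 and 3960 CPM) and the lowest Pklr (40.9 CPM) of its group. The genes most similar to Igfbp1 were Hgd (0.92), Fh1 (0.89) and Nnmt (0.89), and those most similar to Pklr were Lonp2 (0.92), Ces2e (0.91) and Pdk1 (0.89). G6pc was most similar to Slc25a25 (0.76), where the 99th percentile over all genes was 0.59.

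**Figure D3:**
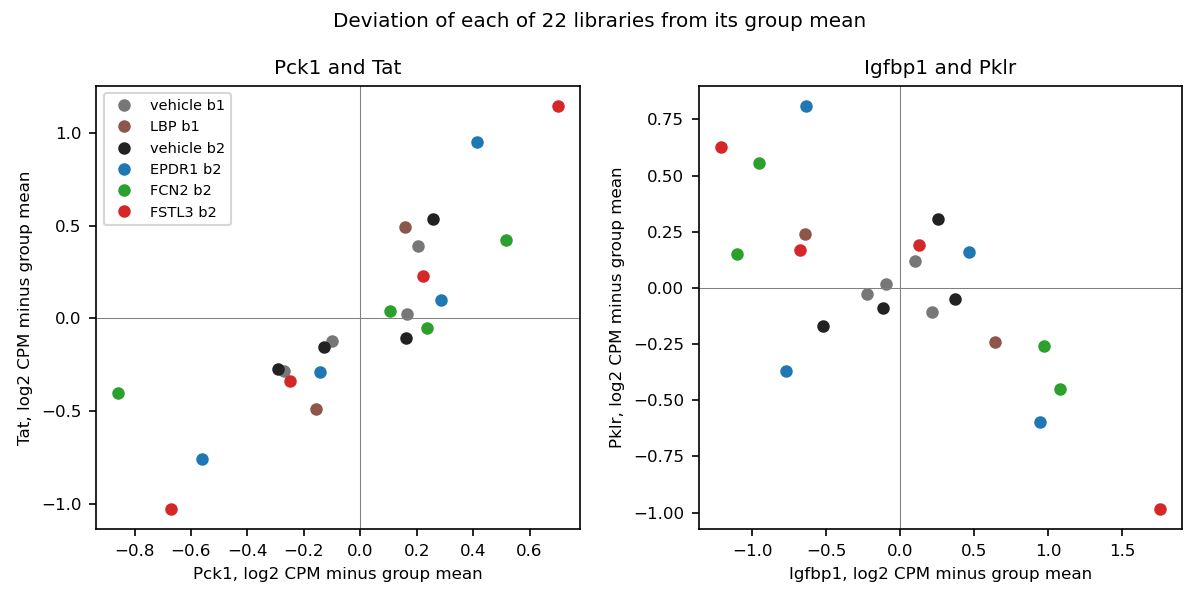
Deviation of each of 22 libraries from its group mean in log2 CPM, for Pck1 against Tat (left) and Igfbp1 against Pklr (right), colored by group. Points rise together on the left (r = 0.87) and fall on the right (r = -0.73); LBP replicate 2 is left out.

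The opposing enzymes gave ratios that do not depend on library size. The log2 ratio of Pck1 to Pklr, in counts per kb, was 4.83 ± 1.25 (SD, n = 4 in each group) after FSTL3 against 5.80 ± 0.45 in its vehicle and 4.74 ± 0.18 in the batch 1 vehicle. The FSTL3 libraries (3.53 to 6.51) spanned the ranges of both vehicles (5.20 to 6.23 in batch 2 and 4.49 to 4.93 in batch 1). The log2 ratio of Fbp1 to Pfkl was 8.22 ± 0.27 after FCN2, above the vehicle at 7.38 ± 0.40, with all 4 FCN2 libraries at 8.01 or more and all vehicle libraries at 7.87 or less. These ratios were not tested.

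**Figure D4:**
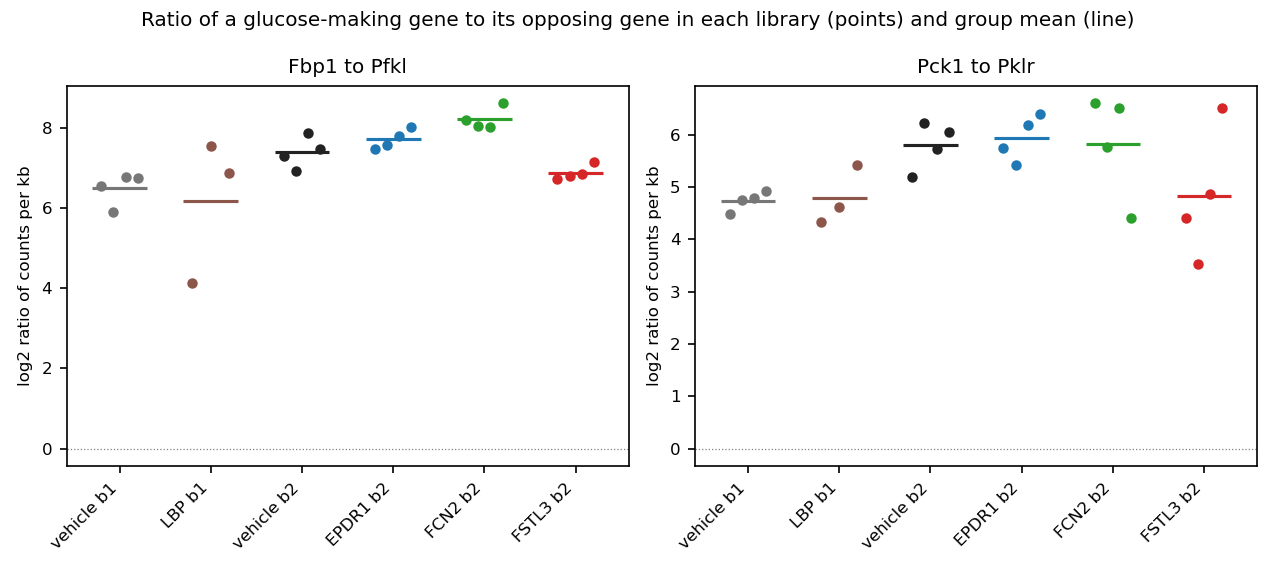
Log2 ratio of counts per kb for Fbp1 to Pfkl and Pck1 to Pklr in each library, by group; lines are group means and the dotted line is equal levels. LBP replicate 2 is the lowest library for Fbp1 to Pfkl, and the 4 FCN2 libraries are above the 4 batch 2 vehicle libraries for Fbp1 to Pfkl.

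The rest of the pathway was read from fixed lists. Of 17 other enzymes and carriers of the gluconeogenic route, 3 were higher and 2 lower after FSTL3, where 39.2% of all genes passed, and their median log2 change was -0.12 against 0.063 for all genes. The counts were 4 higher and 6 lower without LBP replicate 2, where 56.8% of all genes passed; against the batch 1 vehicle 2 were higher and 4 lower. Slc37a4, the transporter that brings glucose-6-phosphate to the G6pc enzyme, rose from 82.8 ± 12.4 to 165 ± 17.6 CPM (SD, n = 4; log2 1.00 ± 0.19, adjusted p = 0.000209, edgeR). Mdh2, mitochondrial malate dehydrogenase, fell from 136 ± 7.02 to 66.5 ± 6.63 CPM (log2 -1.03 ± 0.20, adjusted p = 0.000319). Gapdh and Pgam1 also passed, in opposite directions, but have many near-identical pseudogenes and are uncertain. Pcx, pyruvate carboxylase at the entry of the route, did not pass after FSTL3 (log2 0.41 ± 0.23, adjusted p = 0.171) and was higher in the batch 1 than in the batch 2 vehicle (544 ± 33.7 against 272 ± 24.9 CPM, log2 1.00 ± 0.24, adjusted p = 0.00832).

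Among 21 tested genes of glucagon and cAMP signalling, 9 were higher and 3 lower after FSTL3 (10 and 5 without LBP replicate 2; 7 and 3 against the batch 1 vehicle). Of all genes, 39.2% passed after FSTL3 (23.2% higher). That share was 56.8% without LBP replicate 2 (31.3% higher) and 31.9% against the batch 1 vehicle (18.7% higher). The same shares stand beside each list that follows. No list value, here or for the gluconeogenic route, was adjusted for the rise of FSTL3 changes with transcript length (rho 0.458). The part of that trend in the list values was not tested. Adcy9, an adenylate cyclase, had a log2 change of 2.25 ± 0.26 (adjusted p = 4.95e-07, edgeR). Crtc2, the CREB coactivator that responds to glucagon, had -1.19 ± 0.25 (adjusted p = 0.000542, edgeR). Of 25 insulin signalling genes 11 were higher and 2 lower (14 and 4 without LBP replicate 2; 7 and 7 against the batch 1 vehicle). Irs1, the companion of Irs2, was at 1.87 ± 0.29 (adjusted p = 2.34e-05, edgeR), and Gsk3a was lower (-0.81 ± 0.186, adjusted p = 0.00146). Of 30 transcription factors of the fasting programme 7 were higher and 2 lower (14 and 4 without LBP replicate 2; 6 and 8 against the batch 1 vehicle). Ppara, the fatty acid receptor of fasting, was at 1.96 ± 0.29 (adjusted p = 1.31e-05, edgeR), and Foxa2 was lower (-0.951 ± 0.235, adjusted p = 0.00266). Of 24 fasting output genes 3 were higher and 1 lower (6 and 3 without LBP replicate 2; 2 and 3 against the batch 1 vehicle). Per1 (2.115 ± 0.309, adjusted p = 1.19e-05, edgeR) and Lpin1 (2.23 ± 0.462, adjusted p = 0.000568) were higher. Pdk4, which spares pyruvate in fasting, was lower (-1.47 ± 0.38, adjusted p = 0.00382). The median log2 changes of these 4 lists were 0.45, 0.54, 0.22 and -0.05. Of the Per and Dbp arm of the clock, 9 of 12 genes were higher than in the batch 2 vehicle and 1 was higher than in the batch 1 vehicle.

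No gene of these 5 lists passed after FCN2 or EPDR1 with all libraries in edgeR, where 0.81% and 0% of all genes did. In the fit that left out LBP replicate 2, none passed after EPDR1, and 0% of all genes did. After FCN2, 18.9% of all genes passed in that fit (8.81% higher and 10.1% lower). The lists then held 1 higher and 3 lower in the gluconeogenic route, 1 and 2 in cAMP signalling and 1 and 2 in insulin signalling. There were 3 and 5 among the transcription factors and 2 and 2 among the output genes. Between the vehicles, Cebpb and Cebpd, C/EBP factors of gluconeogenic promoters, were higher in batch 1 (log2 2.79 ± 0.28 and 2.15 ± 0.32, adjusted p = 9.47e-06 and 0.000281, edgeR). After LBP both were lower than in the batch 1 vehicle (-1.67 ± 0.30 and -1.59 ± 0.37, adjusted p = 0.00865 and 0.0136), also without LBP replicate 2 (adjusted p = 0.00437 and 0.0454).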

How the data were processed

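Liver RNA was sequenced as paired 50-base reads on 2 lanes from 800 ng per library, per the labels' protocols. The authors deposited raw counts per gene; per the submitters' processing notes they used STAR 2.6.0c, featureCounts 1.6.3 and build GRCm38, and per the file headers the annotation was Ensembl 95. The file's command sets no strand option, so overlapping antisense reads cannot be told apart. The exon length per gene in the same deposited table was used for levels per kb. Symbols came from GENCODE M21 (54723 of 54838 IDs).

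Groups came from the labels. Counts were fitted with edgeR 4.0.16 (R 4.3.3; TMM, filterByExpr, robust quasi-likelihood, 1 mean per group), with Benjamini-Hochberg adjustment over all genes tested. Alternatives were DESeq2 1.42.0, limma-voom 3.58.1, other filters and scalings, a replicate block, removal of the length trend and leaving libraries out. The fit was tested on simulated data, in which 100 genes were changed 2-fold, 100 were changed 4-fold and the rest were equal. Of genes changed 2-fold it called 49% in the FSTL3 comparison and 23.5% in the LBP comparison, over 11969 genes. In the real FSTL3 comparison 4695 genes passed, so the simulated 49% need not hold there.

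The members and lists were chosen with earlier results of these data known. All 9 members are named; from each list at most 2 higher and 2 lower genes per comparison could be named, those with the smallest p and a mean of at least 5 CPM. Total counts per library (773499 to 21892416) limit low genes most: Ppargc1a had as few as 5 counts.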

Additional observations from a re-analysis of the deposited data

Results flagged for a closer look

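The LBP and FSTL3 responses differed in 3 of the 9 genes by a test of the difference itself in edgeR, where 31.7% of all genes differed. The LBP response minus the FSTL3 response, each against the vehicle of its batch, was -1.78 ± 0.64 on the log2 scale for G6pc (adjusted p = 0.0384), -1.28 ± 0.48 for Ppargc1a (adjusted p = 0.0437) and -1.83 ± 0.55 for Pklr (adjusted p = 0.0142). Without LBP replicate 2 the differences were -1.28, -1.23 and -1.45, with adjusted p of 0.0477, 0.0497 and 0.0271. Protein and batch differ together in this contrast and cannot be told apart.

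In 2 of 45 sets, each 1 gene in 1 group of 4 libraries, 1 library lay far from the other 3. Chance marks about 1 in 20 independent sets, but these sets share libraries and are not independent. Ppargc1a was at 5.71 CPM in replicate 2 of the batch 1 vehicle, and Tat was at 1460 CPM in replicate 2 of the batch 2 vehicle.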

How the results depend on the processing

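Of 1206 single-gene values under alternatives, 1145 stayed on their side of the threshold with no called value changing sign (75 of them changed sign with no call on either side), 30 lost a call, 28 gained one and 3 changed sign with a call on one side. Those 3 were, for FSTL3, Creb3l3 (-0.54) and Pklr (-0.28) with the batch 1 vehicle as control, and Fbp1 (0.43) with the length trend removed and LBP replicate 2 left out. After FSTL3 the number of the 9 called fell to 1 with limma-voom (limma-voom adjusted p = 0.0525 for G6pc and 0.0717 for Pklr). In that fit 4811 of 11969 genes passed. After FCN2 the number rose to 2 with DESeq2 (763 of 11969 genes passed) and with only the compared libraries (1409 of 10155). Between the vehicles it was 0 with no filter (659 of 31250 genes) and 1 with the length trend removed (1305 of 11969). There it was 3 with only the compared libraries (3962 of 9928 genes). It was also 3 with the length trend removed and LBP replicate 2 left out (3633 of 12244). Leaving out libraries gave 1 to 3 of the 9 after FSTL3, 0 to 2 after FCN2, 0 to 0 after EPDR1, 0 to 1 after LBP and 0 to 2 between the vehicles; over all genes the counts ran from 3853 to 6950, 0 to 2314, 0 to 4, 23 to 2145 and 857 to 3715. These fits include leaving out LBP replicate 2 alone or with 1 other library, a choice partly made after seeing the data.

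Genes called after FSTL3 numbered 4695, and 7190 with no filter or 7929 with only the compared libraries. After FCN2 they numbered 97, and 763 with DESeq2, 64 with DESeq2 size factors, 9 with no filter, 0 without the FSTL3 libraries and 1409 with only the compared libraries. After LBP they numbered 922, and 3 with limma-voom, 404 with no filter, 519 without the FSTL3 libraries and 0 with only the compared libraries. Between the vehicles they numbered 1456, and 659 with no filter or 3962 with only the compared libraries; after EPDR1 they numbered 0, and 2 with only the compared libraries. Deviations of same-numbered samples of a protein and its vehicle had r from -0.127 to 0.193. Differently numbered samples were not compared, so this does not show whether the numbers pair them. With the replicate block 51 genes passed after FCN2 and 11 after LBP. The calls of the 9 after FSTL3 were kept, beside 5040 of 11969 genes. With the length trend removed and LBP replicate 2 left out, 5 of the 9 passed after FSTL3 and 3 after FCN2. Of all 12244 genes in that fit, 5678 passed after FSTL3, 2403 after FCN2, 108 after LBP and 3633 between the vehicles. Where an alternative changed a count, the cause was not tested.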

Other observations

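Further kidney genes in LBP replicate 3, chosen after its values were seen, were Kap (6302 counts, at most 8 in any other library), Slc12a1 of the thick ascending limb (235 counts), the organic anion transporter Slc22a6 (176 counts) and the collecting duct water channel Aqp2 (28 counts). The last 3 had 0 counts in each of the other 22 libraries.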
